A study of Mus musculus with 10 samples.

Results

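Nod1, Crx, Olig2, Tmem92, Rptn and Prr18 are 6 genes of mouse embryonic stem cells that gave almost no nascent RNA in wild-type cells of the line CJ7 and gave it readily in the cells labelled Eed null. They were chosen by name, on those same pooled values of CJ7_WT and Eed_null, from the 24901 genes of a table of intronic RPKM. RPKM here counts intronic reads relative to intron length and library size. The difference between Eed_null and CJ7_WT therefore describes the choice and was not tested. The 6 libraries of Elongin A cells played no part in the choice, and what they showed for these genes is the question addressed here.

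Nascent RNA was measured by Bru-seq. Cells took up 2 mM bromouridine for 10 min, and the labelled RNA was captured with an antibody and sequenced, so that reads in introns follow RNA that was being made at the time. The 10 samples form 5 groups of 2. EloA_WT carried wild-type Elongin A, EloA_K754M an edited Elongin A with methionine at lysine K754, EloA_K754R one with arginine there, CJ7_WT was an unedited wild-type line, and Eed_null is labelled as having lost Eed. All were grown in medium with LIF, 1 µM PD0325901 (a MEK inhibitor) and 3 µM CHIR99021 (a GSK3 inhibitor). Each Elongin A library had its own column, whereas CJ7_WT and Eed_null were each present as 1 pooled column without replicates. The labels conflict: EloA_WT and Eed_null are given the line CCE28 and the other groups CJ7, the genotype written for Eed_null is EloA null, and the growth text names CJ7 for all. A difference between EloA_WT and either mutant therefore cannot be told apart from a difference between lines. The same holds for every difference between Eed_null and CJ7_WT given here, for members, neighbours and lists alike. No label says whether an edited line was 1 clone, or whether the samples of a group were separate cultures, so a p-value measures only the spread between these samples.

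Polycomb repressive complex 2 (PRC2) places methyl groups on lysine 27 of histone H3 and holds many lineage genes silent in embryonic stem cells. Eed is the core subunit that binds this mark and is needed for the activity of the complex. PRC2 is known to gather at CpG-rich promoters. Elongin A is the large subunit of Elongin, a factor that speeds RNA polymerase II, and the title of the study names it as a protein that PRC2 methylates. The 6 genes belong to different tissues. Nod1 is an intracellular sensor of bacterial peptidoglycan that signals to NF-kB. Crx is a homeobox factor of photoreceptors, and Olig2 a basic helix-loop-helix factor of motor neuron and oligodendrocyte progenitors. Rptn encodes repetin, a protein of the cornified layer of skin. Tmem92 encodes a membrane protein and Prr18 a proline-rich protein.

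The promoters of the genes were not of one kind. RefSeq windows on the build GRCm38.p6 were found for 5 of the 6 genes, and Tmem92 was not in the table. The sequences of Olig2, Nod1, Crx and Rptn are shown because they span the range of CpG content. Each runs 5′ to 3′ along the gene's strand, stops before the first annotated exon, and has every CpG (the letters CG, which read the same on both strands) in capitals. The Olig2 stretch is chr16:91225300-91225456 on the plus strand, and that of Nod1, at the first of its 2 starts, is chr6:54972613-54972862 on the minus strand. The Crx stretch is chr7:15879969-15880205 on the minus strand, and that of Rptn is chr3:93393449-93393697 on the plus strand.
Olig2: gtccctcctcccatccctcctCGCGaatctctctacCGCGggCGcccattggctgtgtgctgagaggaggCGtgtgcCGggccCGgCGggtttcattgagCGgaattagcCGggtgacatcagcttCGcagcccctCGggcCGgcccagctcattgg
Nod1: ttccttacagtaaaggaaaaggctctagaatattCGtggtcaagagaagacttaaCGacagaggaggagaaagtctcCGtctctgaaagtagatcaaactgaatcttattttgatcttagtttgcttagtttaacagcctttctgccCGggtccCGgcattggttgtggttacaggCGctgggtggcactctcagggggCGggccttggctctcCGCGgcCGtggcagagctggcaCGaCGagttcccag
Crx: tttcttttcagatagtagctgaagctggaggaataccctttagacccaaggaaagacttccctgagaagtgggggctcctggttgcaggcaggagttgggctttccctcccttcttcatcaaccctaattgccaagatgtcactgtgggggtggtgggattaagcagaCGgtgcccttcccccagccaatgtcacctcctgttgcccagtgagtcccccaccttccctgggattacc
Rptn: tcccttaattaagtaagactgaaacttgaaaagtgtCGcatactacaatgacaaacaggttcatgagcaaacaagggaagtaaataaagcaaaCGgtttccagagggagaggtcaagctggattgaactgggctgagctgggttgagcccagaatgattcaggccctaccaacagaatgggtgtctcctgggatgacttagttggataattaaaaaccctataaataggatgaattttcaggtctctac

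Over the full 250 bases before the start, Olig2 held 22 CpG, a count reached by 14.8% of the 32851 windows in the table. Nod1 held 12 at its first start and 4 at its second, Rptn held 2, and Crx held 1, against a median of 6. The ratio of observed to expected CpG, which corrects for base composition, was 0.821 for Olig2 and 0.734 for the first start of Nod1. It was 0.0544 for Crx, and 91.7% of all windows had a ratio at least as high. Prr18 had 2 starts, with ratios of 0.372 and 0.728. Rptn had a ratio of 0.182. A CpG is present in 92.1% of the windows, so its presence alone sets no gene apart. The genes thus fell on both sides of the median ratio of 0.373, Crx and Rptn well below it and Olig2 well above it.

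**Figure D1:**
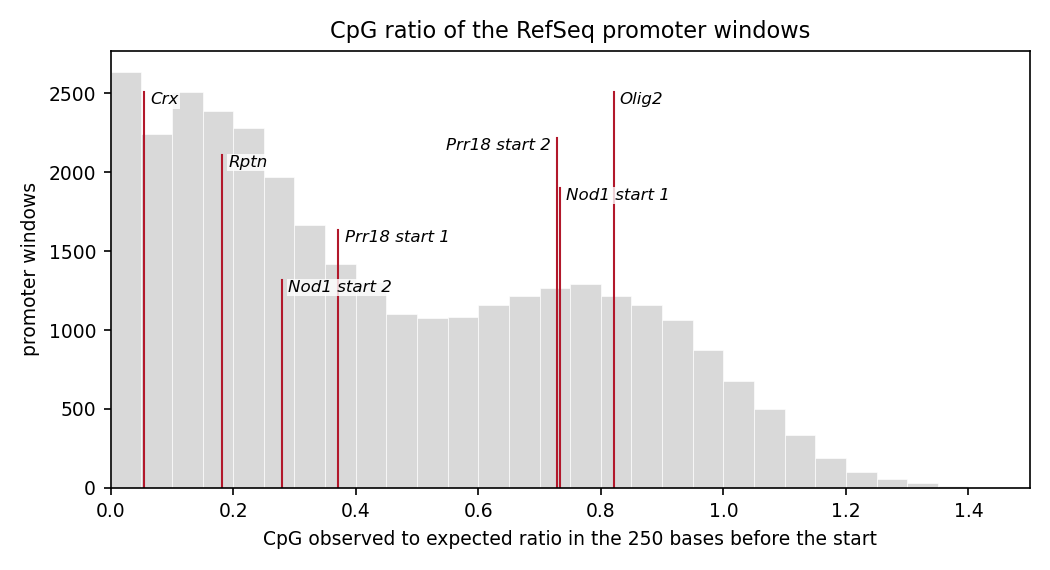
The grey bars count the 32851 RefSeq promoter windows by the ratio of observed to expected CpG in the 250 bases before the start, and red lines mark the windows of 5 of the genes (Nod1 and Prr18 have 2 starts each). Crx at 0.0544 and Rptn at 0.182 lie among the CpG-poor windows, and Olig2 at 0.821 and the first start of Nod1 at 0.734 lie in the CpG-rich hump.

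The RPKM denominator, taken back from the steps between low values, ran from 14732806 to 21725651 reads among the Elongin A libraries, with 47972442 for pooled CJ7_WT and 40092930 for pooled Eed_null. At these depths 1 read in the introns of Nod1 (44268 bases) was worth between 0.00104 and 0.00153 RPKM in an Elongin A library, and 1 read in those of Prr18 (157 bases) between 0.293 and 0.432. The altered genes were read first. Eed introns gave 10.0 RPKM in CJ7_WT, 7.97 in Eed_null and 10.3 to 17.1 in the 6 libraries, so intronic RPKM does not show the loss of Eed. Tceb3, the gene of Elongin A, gave 1.12 to 2.03 RPKM in the 6 libraries, and the K754 changes cannot be seen in these values. All 11 measured markers of embryonic stem cells had a value, and Pou5f1, which encodes Oct4, gave 15.0 to 36.5 RPKM in the 6 libraries, 7.45 in CJ7_WT and 9.38 in Eed_null. All 20 markers of embryonic fibroblasts, the feeder cells of such cultures, also had a value. Twist1 and Lum were each at 0 in 1 column and the other 18 in none. Their summed level ran from 16.2 to 16.8 RPKM in EloA_WT, from 20.2 to 22.2 in EloA_K754M and from 22.5 to 25.2 in EloA_K754R, and was 23.4 in CJ7_WT and 23.0 in Eed_null. In bulk samples, fewer cells that make a transcript and less of it per cell cannot be told apart.

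Nod1 (ENSMUSG00000038058, chromosome 6) was the best covered of the genes. EloA_WT gave 0.110 and 0.118 RPKM, EloA_K754M 0.101 and 0.141, and EloA_K754R 0.0878 and 0.113, from between 63 and 109 reads a library. Pooled CJ7_WT gave 0.0998 RPKM from 212 reads and pooled Eed_null 3.00 RPKM from 5321 reads. All 6 libraries thus lay near CJ7_WT, the 3 Elongin A groups overlapped, and Eed_null stood far above every other column. Eed_null was 30.0-fold above CJ7_WT (exact 95% interval of the ratio of reads 26.2 to 34.6, which covers counting error only). Against the lowest and the highest of the 6 libraries the ratio was 34.1 and 21.3. Means were 0.114 ± 0.00551 RPKM in EloA_WT, 0.121 ± 0.0279 in EloA_K754M and 0.101 ± 0.0180 in EloA_K754R (SD, n = 2 each).

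Crx (ENSMUSG00000041578, chromosome 7) was read at 0.0191 and 0.0339 RPKM in EloA_WT, from 4 and 6 reads. EloA_K754M gave 0.0250 and 0.122 RPKM, from 4 and 20 reads, and EloA_K754R 0.0114 and 0.0593, from 2 and 14 reads. Pooled CJ7_WT had 3 reads (0.00575 RPKM) and pooled Eed_null 537 (1.23 RPKM). The second library of each mutant was the higher and the 3 Elongin A groups overlapped. All 6 libraries lay above CJ7_WT, and the level summed over EloA_K754M, 0.0740 RPKM (interval 0.0474 to 0.110), did not overlap that of CJ7_WT, 0.00119 to 0.0168. Nor did the interval of EloA_K754R, 0.0222 to 0.0630, whereas that of EloA_WT, 0.0124 to 0.0476, did. EloA_WT summed to 0.0259 RPKM, also above the 0.00575 of CJ7_WT, and its interval met that of each mutant. How many of all genes show such gaps to CJ7_WT was not counted. The highest of the 6 libraries remained 10.1-fold below Eed_null (interval 6.48 to 16.7). The ratio of Eed_null to CJ7_WT was 214-fold, with an interval of 72.9 to 1042 because CJ7_WT rested on 3 reads.

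Olig2 (ENSMUSG00000039830, chromosome 16) has 692 bases of intron, and 2 reads in the first EloA_WT library (0.150 RPKM) were its only reads in the 6 libraries. The second EloA_WT library, both EloA_K754M and both EloA_K754R libraries were at 0, as was CJ7_WT. Eed_null held 103 reads, or 3.71 RPKM, the highest level of the 6 genes. That was at least 41.1-fold above CJ7_WT, at least 25.5-fold above the 2 EloA_K754M libraries together and at least 32.5-fold above the 2 EloA_K754R libraries together, taking 3 reads as the limit that a count of 0 allows. Neither mutant gave a read of Olig2, so a level up to that limit (0.145 RPKM in EloA_K754M and 0.114 in EloA_K754R) was not detectable at this depth.

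Tmem92 (ENSMUSG00000075610, chromosome 11) gave 0.0157 and 0.0557 RPKM in EloA_WT, from 1 and 3 reads. It gave 0.0822 and 0.140 RPKM in EloA_K754M, from 4 and 7 reads, and 0.0187 and 0.0557 in EloA_K754R, from 1 and 4 reads. Both EloA_K754M values lay above both values of each other Elongin A group. The summed intervals overlapped, at 0.0557 to 0.200 RPKM in EloA_K754M, 0.00927 to 0.0871 in EloA_WT and 0.0130 to 0.0931 in EloA_K754R. How many of all genes separate the groups in this way was not counted. CJ7_WT, lower than all 6 libraries, had 2 reads (0.0126 RPKM) and Eed_null 210 (1.59 RPKM), a ratio of 126 (interval 34.3 to 1044). Even the highest EloA_K754M library was 11.3-fold below Eed_null (interval 5.39 to 28.4). The summed fibroblast markers were higher in both EloA_K754M than in both EloA_WT libraries, but higher again in EloA_K754R, where Tmem92 was not. Their part in the Tmem92 values was not tested.

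Rptn (ENSMUSG00000041984, chromosome 3) had the highest level in CJ7_WT among the 6 genes, 0.169 RPKM from 13 reads, above all 6 Elongin A libraries, and 2.35 RPKM in Eed_null from 151 reads. The ratio of 13.9 (interval 7.89 to 26.7) was the smallest of those not limited by a count of 0. EloA_WT gave 0.0648 and 0.153 RPKM, from 2 and 4 reads. EloA_K754M gave 0 and 0.0828, from 0 and 2 reads, and EloA_K754R 0 and 0.0288, from 0 and 1 read. Both EloA_K754R values were below both EloA_WT values, and EloA_K754M overlapped each group. The share of all genes with such a separation was not counted. The whole contrast rests on 6, 2 and 1 reads in the 3 groups.

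Prr18 (ENSMUSG00000055945, chromosome 17) was the weakest case, because its measured introns span only 157 bases. It had 1 read in the first EloA_K754R library (0.393 RPKM) and 0 in the other 5, 0 in CJ7_WT and 10 in Eed_null (1.59 RPKM). Eed_null was at least 3.99-fold above CJ7_WT. The interval of its level, 0.762 to 2.92 RPKM, overlapped that of EloA_K754R, 0.00425 to 0.936. As a direct ratio of reads, Eed_null was 9.46-fold above the 2 EloA_K754R libraries together (interval 1.35 to 411). Against the first of them alone the interval, 0.575 to 175, included 1. The order of these groups thus rests on 10 reads against 1.

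**Figure D2:**
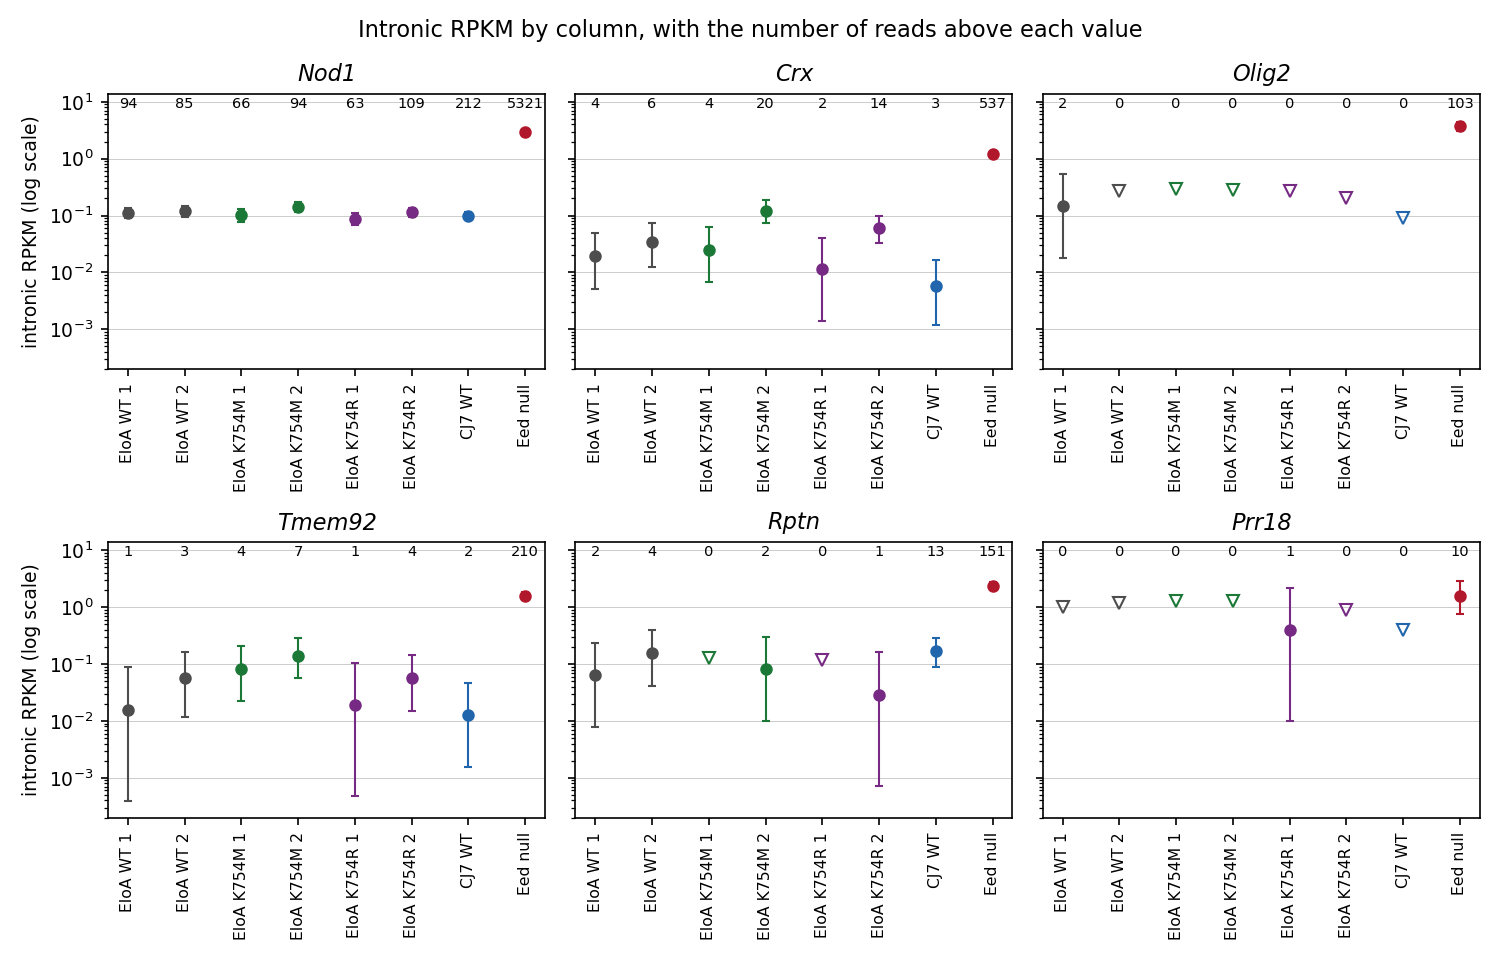
Intronic RPKM on a log scale in the 6 Elongin A libraries and the 2 pooled columns, with exact 95% counting intervals as bars and the number of reads above each point. An open triangle marks a column with 0 reads, at the RPKM of 3 reads. Eed_null, the column for which the genes were chosen, is the highest in all 6 panels. Nod1 is level across the other 7 columns, and the remaining genes rest on few reads there, 20 at most in a single library.

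Eed_null ranked first of the 5 groups for all 6 genes when reads were summed over a group. The genes were chosen for a high value in that column, so this place describes the choice and tests nothing. For 5 of the genes the interval of Eed_null did not overlap that of the next group, and for Prr18 it did. The share of all genes with such a gap was not counted. All other neighbours in the order had overlapping intervals. The second place went to EloA_K754M for Nod1 (0.121 RPKM), Crx (0.0740) and Tmem92 (0.112), to EloA_WT for Olig2, to CJ7_WT for Rptn and to EloA_K754R for Prr18. CJ7_WT was last for Nod1, Crx and Tmem92, shared a level of 0 with other groups for Olig2 and Prr18, and EloA_K754R was last for Rptn.

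To set the choice in its surroundings, the log2 ratio of Eed_null to CJ7_WT was taken after adding 0.1 RPKM to both. It ranked Olig2 12th of 22057 genes with a value, at 5.25, and Rptn 36th, at 3.19, with Prr18 (4.08), Nod1 (3.95), Tmem92 (3.90) and Crx (3.66) between them. These sizes and their order depend on the added constant. With 0.01 RPKM in its place Crx came to 6.30, Tmem92 to 6.14 and Rptn to 3.72, and with 1 RPKM to 1.15, 1.35 and 1.52. As a plain ratio of reads Crx was highest, at 7.74, and Prr18 lowest, at a lower bound of 2.00, with Olig2 at a lower bound of 5.36. A ratio of at least 2-fold in favour of Eed_null was met by all 6 genes, for which they were chosen, and by 4.57% of all genes. No numeric threshold was given for the choice. The widest values among the members, up to 0.169 RPKM in CJ7_WT and at least 1.23 in Eed_null, enclosed 30 genes, or 0.136% of those with a value. Only 8 of the 30 carried a gene name rather than a clone or model number. Besides the members these were Guca1a, a calcium sensor of photoreceptors at 1.25 RPKM in Eed_null, and Olfr837, an olfactory receptor gene whose 9.98 RPKM rested on 2 reads. Of the 30 genes, 17 had fewer than 50 reads in Eed_null.

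**Figure D3:**
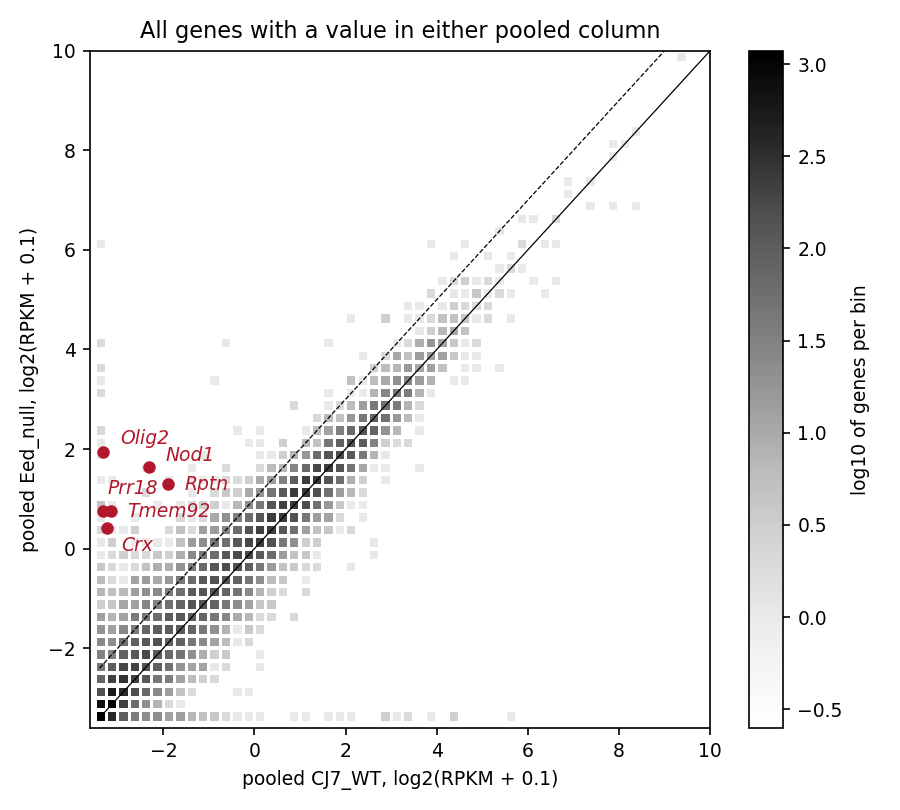
Each grey square counts genes (log10 scale) by log2 of RPKM plus 0.1 in pooled CJ7_WT and pooled Eed_null, with the 6 genes in red, the line of equal values and a dashed line at 2-fold. The members lie 3.19 to 5.25 log2 units above the line of equal values, Olig2, Prr18, Crx and Tmem92 near the left edge and Nod1 and Rptn to their right. Of all genes in the plot, 4.57% lie on or above the dashed line.

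The 6 Elongin A libraries were then compared in 1 limma fit of log2 RPKM plus 0.1 over the 23149 genes above 0 in at least 2 of them. Nod1, Crx, Tmem92 and Rptn entered the fit, whereas Olig2 and Prr18, each above 0 in 1 library, did not. None of the 4 passed an adjusted p of 0.05 in any of the 3 comparisons by limma. In this fit 0 of 4 passed an unadjusted p of 0.05, and voom on recovered reads called 0. Of the 23149 tested genes, limma gave an unadjusted p under 0.05 to 2444 between EloA_K754M and EloA_WT. It did so for 3902 between EloA_K754R and EloA_WT and for 2928 between the mutants. Over all tested genes limma called 0.0994% between EloA_K754M and EloA_WT, 1.01% between EloA_K754R and EloA_WT, and 0.117% between the mutants, so that 0 of 4 is no result about these genes. With the replicate number as a block these shares were 1.10%, 6.32% and 1.82%, and none of the 4 genes was called either. Under the block an unadjusted p of 0.05 was passed by 2 of 4 genes in EloA_K754M against EloA_WT. It was passed by 1 of 4 in EloA_K754R against EloA_WT and 1 of 4 between the mutants. The share of all genes that passed it under the block is not given here, so these counts are no result about the 4 genes. The calls numbered 1 higher and 22 lower in EloA_K754M (3 and 9 after quantile normalization), 36 and 197 in EloA_K754R (35 and 68), and 10 and 17 between the mutants.

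In EloA_K754M against EloA_WT the log2 difference of RPKM plus 0.1 was 0.04 for Nod1 (SE 0.25, 95% interval -0.57 to 0.65, limma adjusted p = 0.957). It was 0.40 for Crx (interval -0.50 to 1.30, limma adjusted p = 0.810). For Tmem92, with both EloA_K754M values above those of EloA_WT, it was 0.64 (interval -0.12 to 1.40, limma adjusted p = 0.571). Rptn stood at -0.60 (interval -1.57 to 0.38, limma adjusted p = 0.746). The signs were mixed and each interval included 0. With the replicate block the estimates were the same and the intervals narrower, 0.14 to 1.15 for Tmem92 and -1.16 to -0.03 for Rptn. Both then left out 0, with limma adjusted p of 0.205 and 0.279, while the intervals of Nod1 and Crx included it.

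In EloA_K754R against EloA_WT, Nod1 stood at -0.10 (interval -0.70 to 0.51), Crx at 0.08 (-0.82 to 0.97) and Tmem92 at 0.02 (-0.74 to 0.78), each with a limma adjusted p of 1. Rptn differed most, at -0.85 (interval -1.82 to 0.13, limma adjusted p = 0.373). With the block its interval was -1.41 to -0.29 (limma adjusted p = 0.0882). Between the mutants, EloA_K754M less EloA_K754R was 0.14 for Nod1, 0.32 for Crx, 0.62 for Tmem92 and 0.25 for Rptn, with a limma adjusted p of 0.860, 0.836, 0.5002 and 0.849. With the block the interval of Tmem92 there was 0.12 to 1.13 (limma adjusted p = 0.183). The sign of 1 or more of these differences turned for Nod1 and Tmem92 under another scaling, and for each of the 4 genes when a single library was left out.

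The level in Eed_null, for which the genes were chosen, can be given beside these intervals as a description. On the same scale Eed_null stood 3.86 above EloA_WT for Nod1, 3.40 for Crx, 3.63 for Tmem92 and 3.55 for Rptn, from pooled columns without a test. The upper bounds without the block for EloA_K754M were 0.65, 1.30, 1.40 and 0.38, and for EloA_K754R 0.51, 0.97, 0.78 and 0.13. Rises up to these bounds lay within the intervals. The added 0.1 RPKM understates the change of such low genes.

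**Figure D4:**
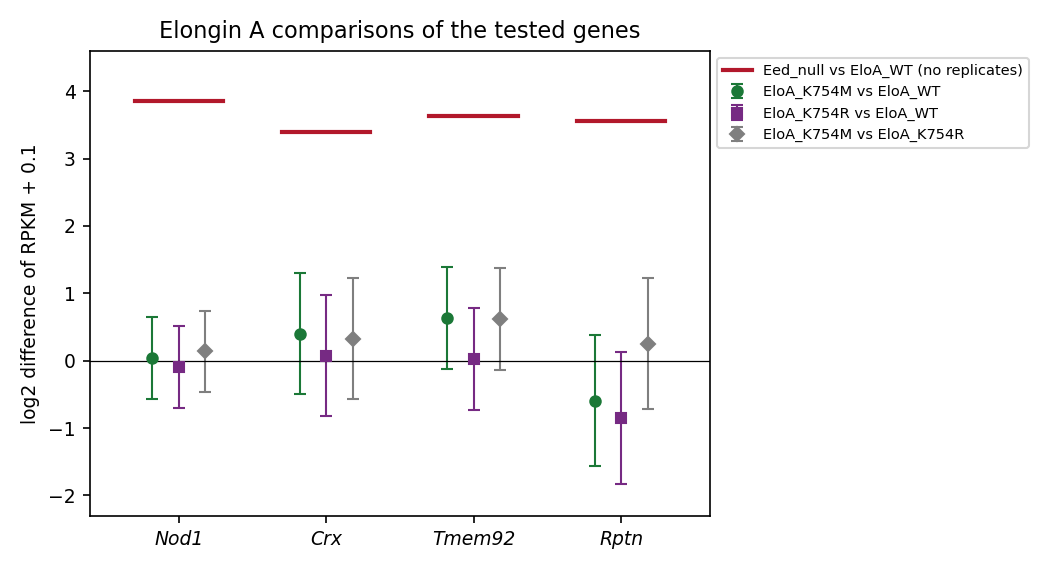
Log2 differences of RPKM plus 0.1 for the 4 tested genes in 3 Elongin A comparisons, with 95% intervals of the limma fit without the replicate block (2 libraries a group), and red bars for pooled Eed_null against EloA_WT without replicates. Every interval in this fit includes 0. The highest upper bound is 1.40, for Tmem92, and the red bars, from the column used to choose the genes, stand at 3.40 to 3.86.

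The replicate numbers moved with the members' values. For Nod1, Crx, Tmem92 and Rptn the second library was above the first in all 3 Elongin A groups, whereas Olig2 and Prr18, with reads in 1 library each, could not show this. The same held for 36.1% of the 23149 tested genes. It held for 58.1% of the 8386 above 0 and up to 0.2 RPKM in CJ7_WT, and for 21.1% of the 7419 with over 1 RPKM there. Within each number, EloA_K754M was above EloA_WT for Crx and Tmem92 and below it for Rptn. Nod1 was below EloA_WT in the first pair of libraries (0.101 against 0.110) and above it in the second (0.141 against 0.118). What the numbers stand for is not given in the sources used here, and its part in the members' values was not tested.

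Several neighbours of the members on the chromosome were also higher in Eed_null. With 2 table genes on each side, 24 neighbours were examined on RPKM plus 0.1. Of these, 11 were at least 2-fold higher in Eed_null than in CJ7_WT, against 4.57% of all genes. None was 2-fold lower, and the share of all genes 2-fold lower was not counted. None of the 11 lay beside Olig2 or Prr18. There the added 0.1 RPKM matters, since the plain values of Il10rb, 4932438H23Rik, T2 and Gm16702 were more than 2-fold higher in Eed_null. Beside Olig2, Ifnar2, a subunit of the type I interferon receptor, gave 0.465 RPKM in CJ7_WT and 0.782 in Eed_null, and Gcfc1 gave 3.07 and 3.55. Il10rb, a receptor chain for interleukin 10, gave 0.0985 and 0.218 RPKM, and 4932438H23Rik 0.00435 and 0.0202. Beside Prr18, Sft2d1 gave 0.509 and 0.632 RPKM, 4930506C21Rik 0.366 and 0.534, T2 0.0257 and 0.0678, and Gm16702 0.0285 and 0.0651.

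Rptn lies in the epidermal differentiation complex, a cluster of skin genes, and 3 of its 4 neighbours were higher in Eed_null. Hrnr, which encodes hornerin, went from 0.0238 RPKM (3 reads) in CJ7_WT to 0.834 (88 reads) in Eed_null. Flg, which encodes filaggrin, was at 0 in CJ7_WT and 0.206 RPKM (39 reads) in Eed_null, and Tchh, the trichohyalin gene, at 0.0225 (1 read) and 0.269 (10 reads). Tchhl1 was at 0 in both. In the 6 Elongin A libraries Hrnr reached at most 0.0875 RPKM, Flg 0.112 and Tchh 0.0715.

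Beside Crx, Obox6, an oocyte homeobox gene, gave 0.0695 RPKM in CJ7_WT and 0.825 in Eed_null, and Crxos1 0.178 and 0.908. Sepw1, a small selenoprotein gene, gave 0.869 and 2.62 RPKM, and Obox5 was at 0 in both pooled columns. Crxos1 and Sepw1 were not silent in the Elongin A libraries, at 0.236 to 0.882 and 1.31 to 2.73 RPKM, so the upper end of both ranges was near the Eed_null level. Beside Nod1, Ggct, an enzyme of glutathione breakdown, gave 0.453 and 2.00 RPKM and 2410066E13Rik 0.212 and 0.598. The 6 libraries again spanned much of that range for Ggct, from 0.781 to 1.82. Znrf2, a ubiquitin ligase gene, gave 4.69 and 6.75 RPKM in the pooled columns. Gars, which encodes glycyl-tRNA synthetase, gave 4.46 and 4.72 RPKM there and was the only neighbour called in the Elongin A fit, in EloA_K754R (limma adjusted p = 0.0444).

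Beside Tmem92, Gm11545 gave 0.0559 RPKM in CJ7_WT and 0.520 in Eed_null. Gm11546 (27 reads) and AA623943 (18 reads) were at 0 in CJ7_WT and at 1.79 and 1.19 RPKM in Eed_null, and Gm11541 gave 0.00501 and 0.0120. In the Elongin A libraries AA623943 reached 1.05 RPKM and Gm11546 0.703, so the Eed_null level of these short-intron genes was not far above the highest single library. No member overlaps another gene of the table in GENCODE M21. Genes outside the table do overlap Rptn and Prr18. Rptn overlaps Gm37245 by 5744 bases on the opposite strand and Gm37857 by 1198 bases on the same strand. Prr18 overlaps AC164431.1 by 6655 bases on the same strand. The counting's use of strand is not given in the sources used here. Whether reads given to Rptn and Prr18 came from the overlapping genes was not tested.

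**Figure D5:**
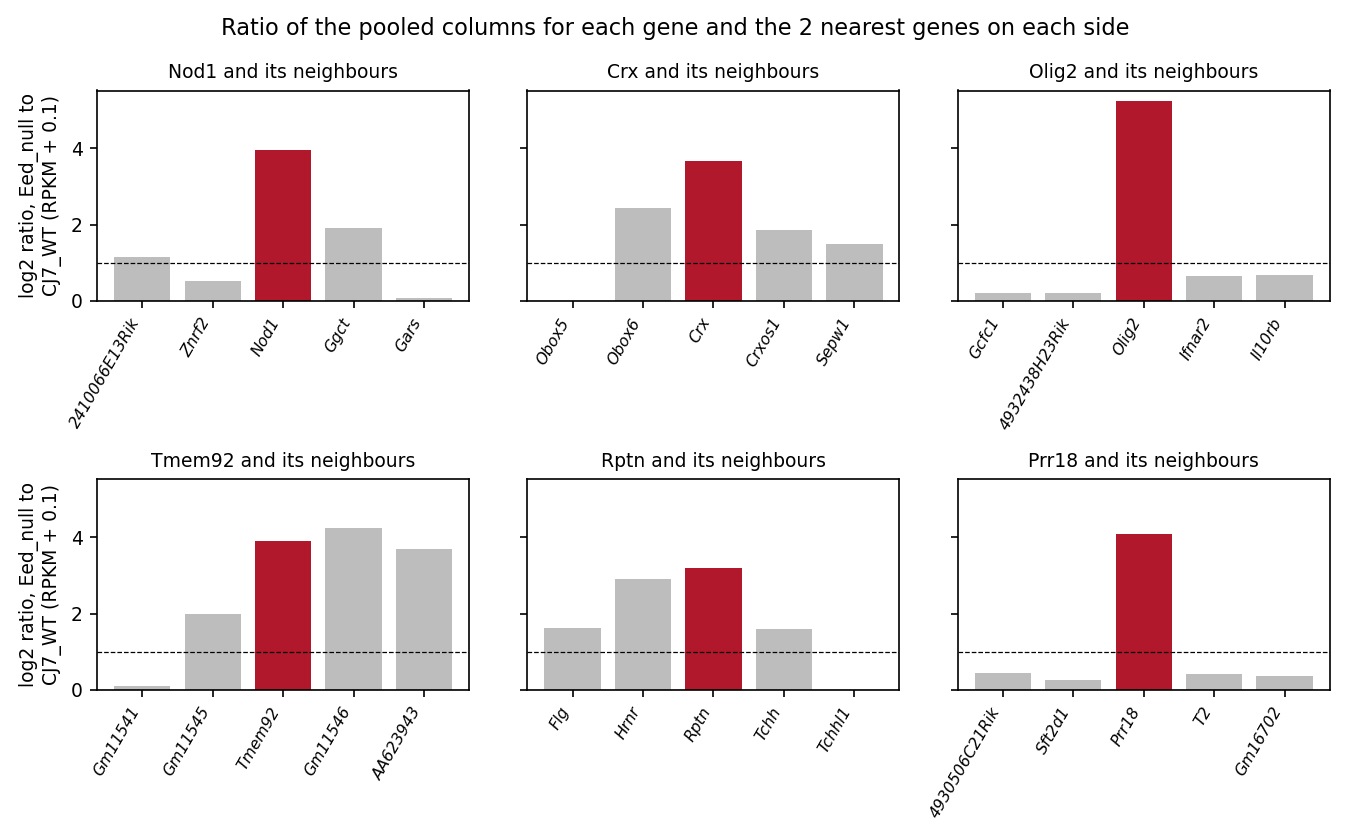
Log2 ratio of Eed_null to CJ7_WT (RPKM plus 0.1) for each member in red and the 2 nearest table genes on each side in grey, with a dashed line at 2-fold. Grey bars pass the dashed line beside Nod1 (2), Crx (3), Tmem92 (3) and Rptn (3), and beside neither Olig2 nor Prr18.

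Genes were also ranked by how closely their 8 values followed those of a member, as the root mean square difference of log2 RPKM plus 0.1 over the 8 columns. This likeness includes the Eed_null difference that chose the members, and the columns share their libraries. Sema5a, an axon guidance gene, was closest to Crx, at 0.107, with 0.00716 RPKM in CJ7_WT, 0.0132 to 0.123 in the 6 libraries and 1.08 in Eed_null from 19028 reads. Sema5a thus held far more reads there than Crx, which had 537 at 1.23 RPKM. Tmem92 and Crx were next to each other at 0.248, and Guca1a followed both, at 0.280 from Tmem92 and 0.307 from Crx. Sema5a stood at 0.298 from Tmem92.

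The other members had no such close match. Nod1 lay nearest to Cables1 (0.521), a cyclin-dependent kinase adaptor gene, Chst11 (0.523), a chondroitin sulfotransferase gene, and Agpat9 (0.575), an acyltransferase gene of lipid synthesis. Their Eed_null levels of 1.28, 1.43 and 1.13 RPKM were below the 3.00 of Nod1. Rptn lay nearest to Guca1a (0.566), Osr2 (0.585), a zinc finger factor, and Nod1 (0.612). Olig2 lay nearest to Osr2 (0.762), Rptn (0.829) and Crx (0.831), and Prr18 to Osr2 (0.798), Gpr137b-ps (0.804) and Hrnr (0.842).

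Other genes of the members' pathways were counted on RPKM plus 0.1, here and in every list below, which shrinks the ratios of low genes. The share of all genes at least 2-fold higher in Eed_null was 4.57%, and the share 2-fold lower was not counted. Of 27 other genes of NOD sensing and NF-kB with a value in a pooled column, 2 were at least 2-fold higher in Eed_null and 0 lower, with a median log2 ratio of 0.13 against 0.08 for all genes. The 2 were Nfkbia, the inhibitor of NF-kB, at 0.426 and 1.30 RPKM in CJ7_WT and Eed_null, and Nod2, the relative of Nod1, at 0.0605 and 0.268. Nfkbia was at 1.11 to 1.62 RPKM in the 6 Elongin A libraries, so there CJ7_WT was the low column. Tnfaip3, which restrains NF-kB, gave 0.147 and 0.371 RPKM and Nfkb2 0.219 and 0.384, both short of 2-fold once 0.1 RPKM was added.

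Of 29 photoreceptor and eye field genes other than Crx, 1 was 2-fold higher in Eed_null and 1 lower, with a median of 0.0047. Otx1 was the higher, at 0.0461 and 0.358 RPKM, and Otx2, which acts upstream of Crx in the retina, was the lower, at 0.710 and 0.254. Lhx2 (0.0724 and 0.228), Six3 (0.0132 and 0.0686) and Rax (0.0225 and 0.0717), all eye field factors, remained low in both. Of 26 ventral neural tube and oligodendrocyte genes other than Olig2, 1 was 2-fold higher and 0 lower, with a median of 0.20. This was Mbp, which encodes myelin basic protein, at 0.170 and 0.711 RPKM. Isl1, a motor neuron factor, gave 0.0447 and 0.174, and Irx3 and Sox8 had 2 reads each in Eed_null.

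Of 20 epidermal differentiation genes other than Rptn, 3 were 2-fold higher and 1 lower, with a median of 0.17. The 3 were the neighbours Hrnr, Flg and Tchh, and the lower was Tgm1, a transglutaminase of the skin barrier, at 1.24 and 0.380 RPKM. Lor, the loricrin gene, rested on 3 reads in Eed_null. Among the stem cell markers 0 of 11 differed 2-fold, with a median of 0.26. The highest ratios were those of Tdgf1 (8.62 and 15.3 RPKM), Prdm14 (2.71 and 4.32) and Klf2 (10.2 and 13.5). Nanog (39.1 and 33.6) and Esrrb (6.85 and 5.64) were lower in Eed_null, as was the summed level of the markers (185 and 157). Of the 20 fibroblast markers 1 was 2-fold higher once 0.1 RPKM was added, Thy1 at 0.0662 and 0.324 RPKM, with a median of 0.21. Next by ratio were Twist1 (0.0392 and 0.141), Pdgfrb (0.136 and 0.263) and Col6a1 (0.0288 and 0.0728). The plain values of Twist1 (1 and 3 reads), Col6a1 and Lum (0.00406 and 0.0292 RPKM, 1 and 6 reads) were also more than 2-fold higher. The summed level of the fibroblast markers was 23.4 and 23.0. No gene of any of the 6 lists was called in the Elongin A fit, in either direction, beside background shares of 0.0994%, 1.01% and 0.117%.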

How the data were processed

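Nascent RNA of mouse embryonic stem cells was analysed in 1 table in which the authors deposited intronic RPKM for 24901 genes in 8 columns. BWA and the build mm9 come from the submitters' processing notes, while no source used here gives the counter, annotation or strand setting. Groups follow the sample titles. The members, the lists and the rule for named genes were chosen with earlier results of these data known. Named genes were the 6 members, the 2 nearest table genes on each side, the 3 most alike genes per member, up to 4 genes per list with the highest Eed_null to CJ7_WT ratio, and the altered genes. Guca1a, Olfr837, Otx2, Tgm1 and Lum were named after their values were seen.

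Low RPKM values of a gene were whole multiples of 1 read's worth (within 0.01 of a read), and reads were recovered for 23831 of 23939 genes with a value (99.5%). For 6788 genes the intron length came out near 2 times the annotated one, so their counts come in steps of 0.5 reads. Each of 5 members matched its annotated introns, and Prr18 matched its last 2. Intervals are exact Poisson or binomial limits at 95% and cover counting error only. Ratios of columns and the limit of 3 reads for a count of 0 use these reads.

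In limma 3.58.1 (R 4.3.3), log2(RPKM + 0.1) was fitted over 3 groups, with a variance trend, for 23149 genes above 0 in at least 2 of 6 libraries, since a floor on the mean would drop near-silent genes. P-values were two-sided and adjusted by Benjamini-Hochberg, with a threshold of 0.05, on 3 residual and 3.14 prior degrees of freedom. The scripts were tested on simulated data. Differences between the second and first libraries correlated between groups at 0.328, 0.285 and 0.317 over 23149 genes, a pairing seen in the data alone, since no label says what the numbers mark. The reported fit has no replicate block, and the block was fitted as an alternative. Gene order and promoter sequences come from RefSeq GRCm38.p6, with names only carried over from that build. Alternatives were the filter, the added constant, the scaling, the block, voom, fits of 4 libraries and leaving out each library.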

Additional observations from a re-analysis of the deposited data

How the results depend on the processing

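Across 171 alternative values for the 4 tested members, 0 passed the threshold, the lowest limma adjusted p was 0.0882 (Rptn, EloA_K754R, replicate block), and 13 changed sign. Under equal library medians Nod1 turned to -0.00016 between the mutants and to 0.049 in EloA_K754R against EloA_WT, and the median of all genes in the latter moved from -0.03 to 0.11. Quantile normalization gave Nod1 -0.17 between the mutants and -0.25 in EloA_K754M, and Tmem92 -0.042 in EloA_K754R. Leaving out single libraries gave Crx -0.092 to 0.74 between the mutants, -0.015 to 0.81 in EloA_K754M and -0.18 to 0.34 in EloA_K754R, Nod1 -0.089 to 0.17 in EloA_K754M, Rptn -0.18 to 0.69 between the mutants, and Tmem92 -0.20 to 0.23 in EloA_K754R. Crx, Nod1 and Rptn turned without the second EloA_K754M library, and Crx and Tmem92 without the first EloA_WT or the second EloA_K754R library. The lone library left in a group was assumed to vary like the other groups. The cause was not tested.

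Counts of called genes moved more. From 23 in EloA_K754M against EloA_WT they went to 40 with equal library medians, 12 with quantile normalization, 7 with 4 libraries, 0 with voom, 255 with the replicate block and 2 to 5 without single libraries. From 233 in EloA_K754R they went to 527 under a floor of 0.1 RPKM on a gene's mean, 103 with quantile normalization, 56 with 4 libraries, 66 with voom, 1462 with the replicate block and 0 (without the first EloA_K754R) to 54 without single libraries. From 27 between the mutants they went to 44 with that floor, 77 with equal library medians, 0 with voom, 422 with the replicate block and 2 to 27 without single libraries. The replicate block changed no member's call. Of 24 alternative Eed_null to CJ7_WT ratios 14 moved and 0 turned; for Crx they ran from 1.15 to 7.74. Reads limit Olig2, Prr18 and Rptn most, with 2, 1 and 9 reads over the 6 libraries.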
